A study of Mus musculus with 6 samples.

Results

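The respiratory chain and ATP synthase genes of mouse embryoid bodies (EBs) are described here, by complex and by encoding genome. They are the protein-coding genes whose symbols start with mt-, Nduf, Sdha to Sdhd, Uqcr, Cox4 to Cox8 or Atp5, with Cyc1 and Cycs added and pseudogenes left out. This rule took 108 of the 52636 rows of the deposited count table, of which 13 are encoded in the mitochondrial genome and 95 in the nucleus. Of the nuclear genes, 86 are counted as subunits, among them Cox7a2l, a factor that joins complexes III and IV, 8 are Ndufaf genes for assembly factors of complex I, and Atp5s is named with ATP synthase without being a subunit. EBs are aggregates in which embryonic stem cells start to differentiate. RNA was sequenced from 3 replicates of WT EBs and 3 replicates of Tnfaip2-/- EBs, all from the mouse ES cell line E14 and all harvested on day 3 of differentiation. The Tnfaip2-/- EBs came from 1 CRISPR-Cas9 clone and the WT EBs from its parental line, so that the effects of the genotype and of the clone cannot be told apart. The p-values below measure the spread between replicates of 1 line and 1 clone. This spread was small, with a common biological coefficient of variation of 0.0215 in edgeR.

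The samples had 22987433, 22489903 and 23804489 counts in WT EBs and 22480962, 21765931 and 21986960 counts in Tnfaip2-/- EBs. The targeted gene Tnfaip2 had 7, 4 and 7 counts in the WT samples and 0, 2 and 2 in the Tnfaip2-/- samples. Every Tnfaip2-/- sample was below every WT sample, but these counts are too few for the expression filter. Over the groups there were 18 counts against 4, a ratio of 4.30 of WT to Tnfaip2-/- with a 95% interval of 1.42 to 17.5 (Clopper-Pearson, counting error only).

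Markers of the cells that EBs can hold were read beside the respiratory genes. By the test described below, 67.7% of all tested genes were called, 34% higher and 33.7% lower in Tnfaip2-/- EBs. All 7 pluripotency markers were called, 5 lower and 2 higher in Tnfaip2-/- EBs, and their summed level was 3542, 3489 and 3557 CPM (normalized counts per 1000000) in the WT samples and 2310.1, 2317 and 2284 CPM in the Tnfaip2-/- samples. Dppa5a was the most abundant of them in both groups. All 5 mesendoderm markers were lower, from a sum of 73.3, 72.4 and 72.7 CPM to 19.9, 17.5 and 20.8 CPM. Only Eomes was well measured in both groups, with 648, 671 and 623 counts in WT EBs and 426, 368 and 440 in Tnfaip2-/- EBs. T, the most abundant of the list in WT EBs, had 774, 732 and 866 counts there and 5, 3 and 1 in Tnfaip2-/- EBs. All 4 neural markers were called, 3 lower and 1 higher, with sums of 169, 172 and 159 CPM and 131, 132 and 134 CPM and Tubb3 as the most abundant gene.

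Each of the other lists summed to less than the neural list in every sample. The 3 germ cell markers summed to 35.0, 35.1 and 35.1 CPM in WT EBs and 73.7, 69.8 and 70.7 CPM in Tnfaip2-/- EBs, with Ddx4 most abundant and 2 of them higher and 1 lower. Of the 6 markers of cardiac and skeletal muscle, only Myh6 and Myh7 passed the expression filter and both were higher, while Ckm was at 0 in some samples of each group and Actc1, Tnnt2 and Myog were below 1 CPM in every sample. The muscle list summed to 3.57, 3.44 and 3.15 CPM and 5.50, 6.30 and 6.18 CPM, mostly from Myh6. The 5 endoderm markers, with Gata4 most abundant, summed to 18.5, 20.0 and 19.2 CPM and 16.9, 18.0 and 19.6 CPM, and 1 was higher and 2 lower. The fibroblast list, led by Thy1 in WT EBs, had 1 higher and 1 lower of its 5 genes, Postn at 0 in every Tnfaip2-/- sample, and sums of 12.2, 12.5 and 11.9 CPM and 11.4, 11.4 and 11.9 CPM. The trophoblast list, led by Krt8, gave 2 lower of 4 genes with sums of 17.3, 16.7 and 16.9 CPM and 12.5, 14.2 and 14.2 CPM. No blood marker could be tested, the list summed to 0.441, 0.67 and 0.681 CPM and 0.66, 0.776 and 0.947 CPM with Hba-a1 contributing most in most samples, and Hbb-bt was at 0 in every sample. T, Mesp1, Kdr, Afp and Cdx2 had at most 6 counts in any Tnfaip2-/- sample and passed the filter through the WT samples alone, so no fold change is given for them. Their calls are included in the marker counts above but carry little weight. Mixl1 was also low in Tnfaip2-/- EBs, with 17, 4 and 15 counts. The groups differed in the levels of better measured markers as well, in both directions. Pou5f1 (log2 fold change -0.86) and Sox1 (-1.61) were lower, while Sox2 (0.23), Nanog (0.26) and Tubb3 (0.37) were higher. The part of marker content in the results below was not tested. In RNA from whole EBs, fewer cells of a type and less RNA per cell cannot be told apart.

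The respiratory chain passes electrons from NADH and succinate to oxygen through complexes I to IV and pumps protons across the inner mitochondrial membrane, and complex V, the ATP synthase, uses the gradient to make ATP. Complexes I, III, IV and V combine subunits from both genomes, whereas complex II is encoded in the nucleus alone. Mitochondrial DNA is transcribed from both strands into long precursors, from which mRNAs and rRNAs are cut out at the tRNAs between them. Pluripotent cells draw on glycolysis as well as respiration, and mitochondria are known to be remodelled when such cells differentiate.

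Of the 108 members, 105 passed the expression filter, and Cox7b2, Cox8b and Cox8c did not. Among the 105, 76 (72.4%) passed edgeR's quasi-likelihood test at a Benjamini-Hochberg adjusted p under 0.05, close to the 67.7% of all 17849 tested genes that passed. There were 38 members higher and 38 lower in Tnfaip2-/- EBs, beside 34% and 33.7% of all tested genes. In 70 members the samples of the groups did not overlap, against 69.4% of all tested genes. Only 6 members, mt-Nd3, Cox4i2, Cox7a1, Cox6a2, Ndufaf3 and Atp5s, were called and changed at least 1.5-fold, whereas 24.8% of all tested genes were. The share of called members is thus near the background, and the changes of most members were small. The shares of all tested genes also stand beside the counts of called genes in each list below.

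All 13 mitochondrially encoded members were lower in Tnfaip2-/- EBs. Their log2 fold changes had a median of -0.24 and a range of -0.60 to -0.10, and their samples did not overlap between the groups except for mt-Co2. Of the 83 tested nuclear encoded subunits, 36 were higher, 22 were lower and 25 were not called, with a median of 0.05. Over the alternatives other than the test against 1.5-fold, 28 to 41 were higher and 20 to 26 lower, with medians from 0.01 to 0.08. The lean to higher was smallest without WT replicate 2 (28 higher, 26 lower) and largest with library totals in place of TMM factors (41 higher, 20 lower). The median over every tested gene was 0.00. None of the 13 had a fitted value above 0 in edgeR or in DESeq2.

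The direction of the nuclear members differed between sets of chromosomes. On chromosomes 3, 5, 10, 12 and 17, where the other tested genes had medians from -0.26 to -0.18, 2 of 19 tested nuclear encoded subunits were higher and 13 were lower, with a median of -0.16. Of the 4285 other tested genes there, 18.2% were higher and 51.7% lower, with a median of -0.21. On the other 14 chromosomes with nuclear members, where medians ran from -0.01 to 0.12, 34 of 64 subunits were higher and 9 lower, with a median of 0.07, and 39.7% of the 12694 other genes were higher and 27.1% lower, also with a median of 0.07. Among these 14 chromosomes, only chromosome 9 had more nuclear members lower (2) than higher (1), and chromosomes 6 and 19 had 1 of each. The cutoff between these sets of chromosomes, a median of -0.1, was chosen after the data were seen. Medians of the other genes defined the sets, so the lean of those genes in each set followed from the cutoff. As shares, 10.5% of the subunits were higher and 68.4% lower below the cutoff, and 53.1% and 14.1% on the other chromosomes. Their difference from the other genes was not tested, nor was the part of chromosome-wide shifts in the values of single members.

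**Figure D1:**
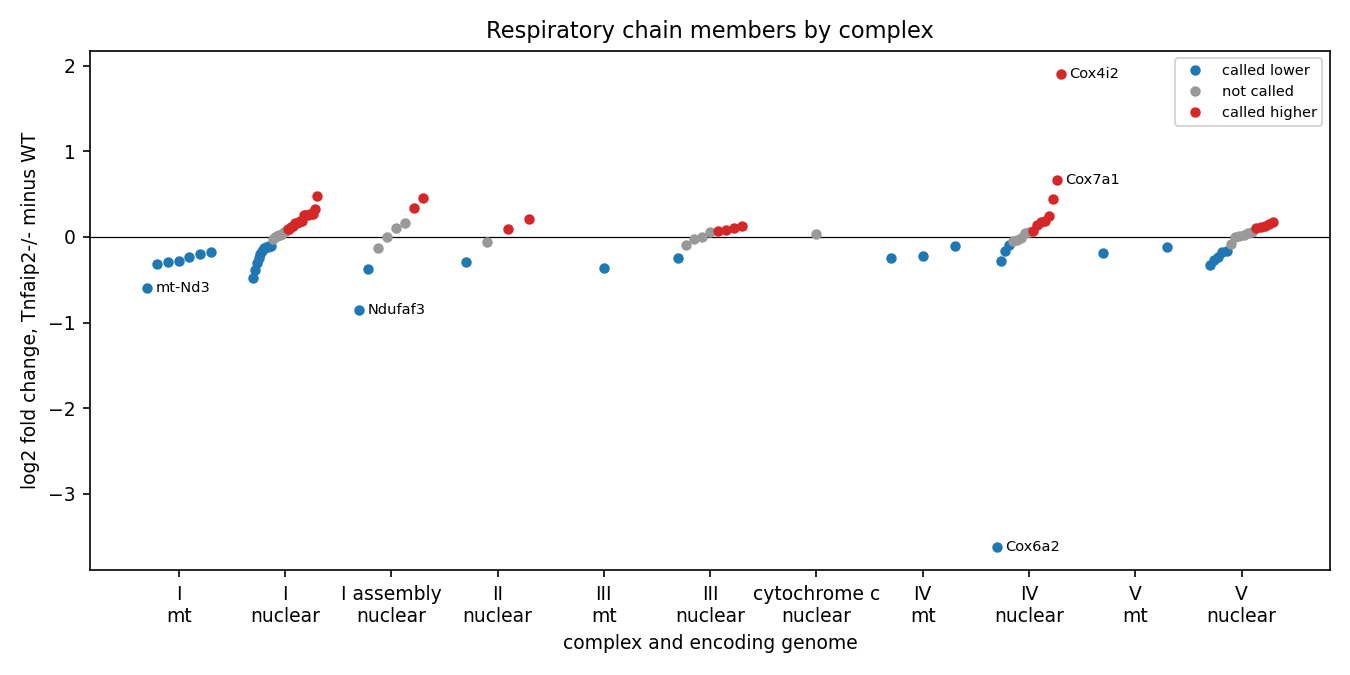
Log2 fold change (Tnfaip2-/- minus WT, vertical axis) of the tested members, by complex and encoding genome (horizontal axis), with 1 point per gene ordered by value within a column. Points are coloured by the call of edgeR's quasi-likelihood test, and genes called and changed at least 1.5-fold are named. Atp5s, which is not a subunit, is not drawn. The mitochondrially encoded columns hold lower genes only, and the nuclear columns of complexes I to V hold both directions.

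As a share of all counts, the 13 protein-coding mitochondrial genes took 2.48, 2.43 and 2.47% in the WT samples and 2.07, 2.16 and 2.15% in the Tnfaip2-/- samples. The nuclear encoded subunits took 1.25, 1.21 and 1.25% and 1.24, 1.26 and 1.24%. The first shares did not overlap between the groups and the second did. The ratio of mitochondrially to nuclear encoded subunit counts was 1.98, 2.01 and 1.96 in WT EBs and 1.67, 1.72 and 1.73 in Tnfaip2-/- EBs, again without overlap. An exact permutation test of 3 against 3 samples cannot go below 0.1, so no p is given for these shares.

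Parts of the mitochondrial genome have near-identical copies in the nuclear genome, and reads from such stretches cannot be assigned to 1 of them by sequence. Of the 13 members, 9 share windows of 51 bases, the read length, with 12 annotated pseudogenes in the nucleus. At least 98% of the windows of mt-Co2, mt-Co3, mt-Atp6, mt-Nd4l and mt-Nd3 were shared, and the copies of these genes had about as many counts as the genes themselves, from 99.9% for mt-Co3 to 123% for mt-Co2. The copies took 1.15, 1.10 and 1.14% of all counts in WT EBs and 0.998, 1.05 and 1.03% in Tnfaip2-/- EBs, and all 12 were called lower. The authors describe a count of uniquely mapped reads, which could not cover shared windows, yet both the genes and their copies hold counts, and how such reads were placed is not known here. The levels of these members are therefore uncertain. With the copies added, an analysis chosen after the data were seen, the shares were 3.63, 3.54 and 3.61% against 3.07, 3.21 and 3.18%, and all 13 members were still called lower.

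**Figure D2:**
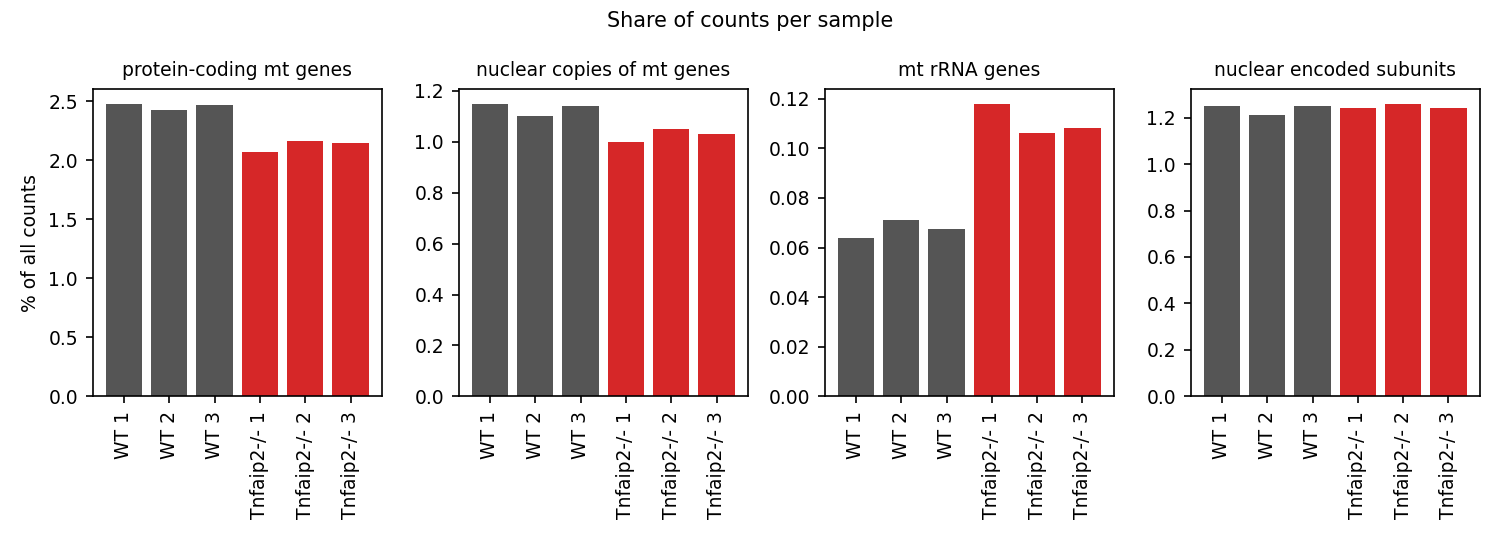
Share of all counts in each sample (vertical axes, %, each from 0 and with its own scale) for the protein-coding mitochondrial genes, their annotated nuclear copies, the mitochondrial rRNA genes and the nuclear encoded subunits. WT samples are grey and Tnfaip2-/- samples are red. The first and second panels are lower and the rRNA panel higher in every Tnfaip2-/- sample, and the nuclear subunits overlap.

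The start of mt-Nd3 and of its copy on chromosome 1, the pseudogene Gm28438, is shown because mt-Nd3 had the largest change of the 13 mRNAs and the pair can hardly be told apart by sequence. The genes were compared over 345 bases and differed at 1 position, T3C, counted from 1 at the first base of mt-Nd3, so that 99.7% of bases were the same. The first 30 bases of each are given from the GRCm38 annotation (GENCODE M21), with position 3 in capitals. They lie at chrM:9459-9488 on the forward strand and chr1:24613090-24613119 on the reverse strand.
mt-Nd3: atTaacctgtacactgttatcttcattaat
Gm28438: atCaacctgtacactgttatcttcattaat

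Complex I takes electrons from NADH, and its 7 mitochondrially encoded subunits form the core of the membrane arm. mt-Nd3 had 221, 204 and 223 CPM in the WT samples and 145, 144 and 138 CPM in the Tnfaip2-/- samples. All Tnfaip2-/- samples were below all WT samples (log2 fold change -0.60, standard error 0.0308, adjusted p = 4.5e-22). With the counts of Gm28438 added it was -0.62. mt-Nd1, which has no annotated copy, had 2477, 2425 and 2515 CPM against 2014, 2046 and 2035 CPM (log2 fold change -0.28, standard error 0.0219, adjusted p = 1.06e-15). The other subunits of the arm moved less than mt-Nd3, with -0.32 for mt-Nd2, -0.29 for mt-Nd4l, -0.24 for mt-Nd5 and -0.20 for mt-Nd4. mt-Nd6, the only protein-coding gene on the other strand of the mitochondrial genome, had 554, 543 and 559 CPM and 463, 502 and 501 CPM (log2 fold change -0.18, adjusted p = 9.07e-08). It too did not overlap between the groups. Both strands of the mitochondrial genome are transcribed, and strand was not recorded. Reads from the opposite strand therefore cannot be told from those of mt-Nd6, and its value is uncertain.

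mt-Cytb encodes cytochrome b, the mitochondrially encoded subunit of complex III, and has no annotated copy. Its level was 2465, 2385 and 2431 CPM in WT EBs and 1847, 1910.1 and 1918 CPM in Tnfaip2-/- EBs (log2 fold change -0.36, standard error 0.0224, adjusted p = 5.53e-19) without overlap. Per kb of exon, mt-Co1, the catalytic core of complex IV, was the highest of all members by its own counts, at 5114 CPM per kb in WT and 4293 in Tnfaip2-/- EBs. With the counts of copies added, the order is uncertain: mt-Co1 had 7277.1 CPM per kb and mt-Co2 7186.6 in WT EBs, and 6217.1 and 6674.9 in Tnfaip2-/- EBs. By its own counts, the samples of mt-Co1 had 7991, 7832 and 7882 CPM and 6440.4, 6742 and 6716 CPM (log2 fold change -0.25, adjusted p = 4.71e-14). mt-Co3 was lower as well (-0.22, adjusted p = 4.48e-11). mt-Co2, which takes electrons from cytochrome c, had 2276, 2112 and 2215 CPM and 1965, 2139.6 and 2037 CPM, and here the highest Tnfaip2-/- sample lay above the lowest WT sample. Its log2 fold change of -0.10 (adjusted p = 0.000779) was the smallest of the 13. The subunits of the ATP synthase membrane part, mt-Atp8 (-0.19, adjusted p = 2.15e-07) and mt-Atp6 (-0.12, adjusted p = 3.01e-05), were both lower, and since their reading frames overlap, reads there cannot be assigned to 1 of them.

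Both rRNA genes of the mitochondrial genome were higher, unlike the mRNAs. mt-Rnr1, the small rRNA, had 245, 262 and 255 CPM in WT EBs and 578, 532 and 529 CPM in Tnfaip2-/- EBs. It rose in every Tnfaip2-/- sample (log2 fold change 1.10, standard error 0.0294, adjusted p = 1.97e-29). mt-Rnr2, the large rRNA, had 403, 451 and 427 CPM and 587, 523 and 540.4 CPM (log2 fold change 0.37, adjusted p = 9.23e-05) and no overlap. Both together took 0.0639, 0.0711 and 0.0673% of counts in WT EBs and 0.118, 0.106 and 0.108% in Tnfaip2-/- EBs. The library kit selects RNA with a poly(A) tail, so these counts do not measure total rRNA. Among RNAs from the nucleus that lack such a tail, listed after the data were seen, 41 histone cluster genes were tested. Of these, 29 were lower and 4 higher, with a median log2 fold change of -1.01. Among 47 tested snoRNA genes, 6 were higher and 10 lower, with a median of -0.04. The part of poly(A) selection in the rRNA difference was not tested.

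Of the 22 tRNA genes, 17 were tested, of which 10 were lower, 0 were higher and 7 were not called. Since the library kit selects RNA with a poly(A) tail, these counts do not measure total tRNA. The largest fitted falls were in mt-Tr and mt-Tg, the tRNA genes on either side of mt-Nd3. The place of mt-Tr is uncertain, since it passed the expression filter only because of its WT samples. The sequences of both genes are shown to give the size of these neighbours, each 68 bases. Both lie on the forward strand, mt-Tg at chrM:9391-9458 and mt-Tr at chrM:9808-9875 (GRCm38, GENCODE M21).
mt-Tg: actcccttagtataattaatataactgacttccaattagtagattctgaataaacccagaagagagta
mt-Tr: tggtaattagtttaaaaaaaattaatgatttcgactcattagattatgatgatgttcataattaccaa
mt-Tr had 65, 60 and 61 counts in WT EBs and 10, 9 and 10 counts in Tnfaip2-/- EBs (fitted log2 fold change -2.63, standard error 0.233, adjusted p = 8.36e-14). It passed the expression filter only because of its WT samples, so its fold change and call carry little weight. mt-Tg had 70, 99 and 90 and 30, 27 and 24 counts (log2 fold change -1.64, standard error 0.178, adjusted p = 3.89e-11), and neither gene overlapped between the groups. Of the 118 positions where a 51-base read that touches mt-Tg can start, 18 touch no other gene, and for mt-Tr 20 of 118. How reads that touch several genes were counted is not stated for these samples. The paper left such reads out of its planarian counts. If the same was done here, the values of mt-Tg and mt-Tr rest on few positions.

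**Figure D3:**
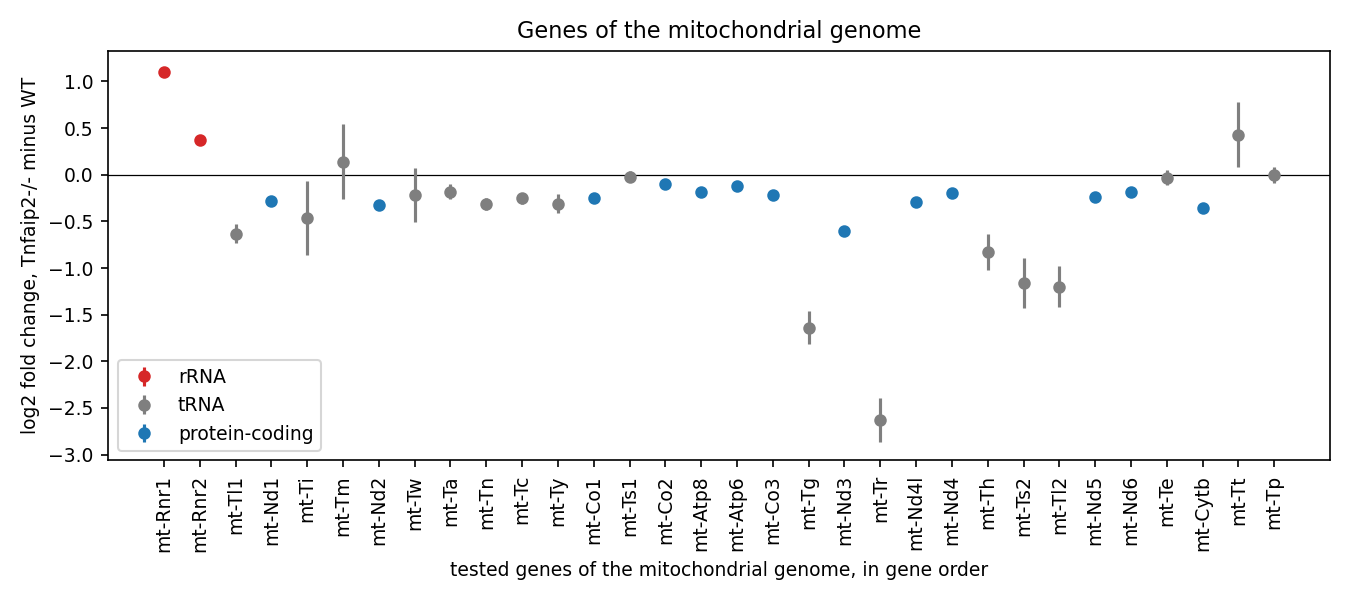
Log2 fold change (Tnfaip2-/- minus WT, vertical axis) of the tested genes of the mitochondrial genome in gene order (horizontal axis), with error bars of 1 standard error, which are smaller than the point for most mRNAs. All 13 protein-coding genes lie below 0, both rRNA genes lie above 0, and mt-Tg and mt-Tr, on either side of mt-Nd3, are the lowest. The value of mt-Tr is uncertain, since it passed the expression filter only because of its WT samples.

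Of the 36 nuclear encoded subunits of complex I, 17 were higher, 11 were lower and 8 were not called, with log2 fold changes from -0.48 to 0.48 and a median of 0.06. Ndufa8, an accessory subunit on the side of the intermembrane space, had 44.0, 42.5 and 41.5 CPM in WT EBs and 58.3, 61.8 and 58.0 CPM in Tnfaip2-/- EBs. It rose in every sample (log2 fold change 0.48, standard error 0.0418, adjusted p = 6.43e-14). Ndufb5, an accessory subunit of the membrane arm, had 87.1, 84.8 and 89.5 CPM and 63.9, 62.6 and 61.2 CPM and fell in every sample (log2 fold change -0.48, standard error 0.0361, adjusted p = 4.79e-16). Since 12.3% of its exon bases lie under another gene and strand was not recorded, its value is uncertain. Per kb, Ndufa2 was the highest nuclear gene of complex I in WT EBs, at 114 CPM per kb. Its samples overlapped, at 63.7, 65.1 and 67.6 CPM and 69.9, 73.3 and 66.1 CPM, and its call (log2 fold change 0.09, adjusted p = 0.0344) was lost in DESeq2 (adjusted p = 0.111), without an expression filter (0.132), with a replicate block (0.0536) and with pseudogene copies added (0.0621). It was also lost without WT replicate 1 or 2 (adjusted p = 0.209 and 0.0895) and without Tnfaip2-/- replicate 1 or 2 (0.0737 and 0.253). Over all alternatives but the test against 1.5-fold, its adjusted p ranged from 0.00621 to 0.253.

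Promoters of 69 of the 86 nuclear encoded subunits were found in the RefSeq table (GRCm38.p6) as windows of 300 bases around the gene start. The promoters of Ndufa8, the largest rise of complex I, of Cycs, which was not called, and of Sdhd, the fall of complex II, are shown because they carry letters known from factors that drive respiratory genes. The capitals mark the NRF1 core GCGCATGC (read on the other strand in Ndufa8 and Cycs) and, in Sdhd, the ETS core CCGGAAG and the element TCAAGGTCA of oestrogen-related receptors, both on the other strand. The windows are chr2:36049289-36049588 for Ndufa8, chr6:50566520-50566819 for Cycs and chr9:50603800-50604099 for Sdhd, all on the reverse strand.
Ndufa8: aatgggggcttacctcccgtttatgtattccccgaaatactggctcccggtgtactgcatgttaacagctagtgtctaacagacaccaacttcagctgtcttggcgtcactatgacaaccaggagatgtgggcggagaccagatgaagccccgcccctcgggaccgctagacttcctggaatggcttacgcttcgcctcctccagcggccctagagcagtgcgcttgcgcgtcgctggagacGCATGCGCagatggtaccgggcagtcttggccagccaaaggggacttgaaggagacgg
Cycs: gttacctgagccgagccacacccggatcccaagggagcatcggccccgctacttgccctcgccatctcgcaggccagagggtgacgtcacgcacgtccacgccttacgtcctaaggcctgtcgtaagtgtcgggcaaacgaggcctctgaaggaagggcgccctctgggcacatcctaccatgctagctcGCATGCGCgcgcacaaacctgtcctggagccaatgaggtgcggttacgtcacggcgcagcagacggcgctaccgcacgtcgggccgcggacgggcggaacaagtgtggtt
Sdhd: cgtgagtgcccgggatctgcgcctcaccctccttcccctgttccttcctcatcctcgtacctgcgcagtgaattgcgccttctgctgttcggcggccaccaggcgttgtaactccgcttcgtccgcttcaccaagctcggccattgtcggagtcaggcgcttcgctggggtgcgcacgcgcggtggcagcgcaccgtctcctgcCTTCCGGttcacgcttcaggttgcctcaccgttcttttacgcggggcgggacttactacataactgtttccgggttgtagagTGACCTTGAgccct
Searched on both strands, the NRF1 core was in 11 of the 69 promoters (15.9%) and in 824 of 27025 promoters of all genes (3.05%). The ETS core was in 16 (23.2%) and in 2683 (9.93%). TCAAGGTCA was in 2 (2.90%) and in 126 (0.466%). By call, the NRF1 core was in 5 of 29 subunits that were higher, 2 of 20 that were lower and 4 of 18 that were tested and not called, and the ETS core was in 5, 5 and 6. A match describes letters in a window and shows no binding.

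Complex I is put together with assembly factors. Of the 8 Ndufaf genes, 2 were higher, 2 were lower and 4 were not called. Ndufaf3 (chr9:108565537-108567434), which acts early in assembly, had 14.7, 15.5 and 14.9 CPM in WT EBs and 8.41, 8.45 and 8.16 CPM in Tnfaip2-/- EBs. It fell in every sample (log2 fold change -0.85, standard error 0.0765, adjusted p = 1.52e-13). Ndufaf1, a factor of the membrane arm intermediate, had 15.6, 14.9 and 16.2 CPM and 21.7, 20.7 and 22.1 CPM and rose in every sample (log2 fold change 0.46, adjusted p = 9.5e-09). Per kb, Ndufaf6 was the highest of these genes, at 14.7 CPM per kb in WT EBs, with a log2 fold change of -0.13 that did not pass the test (adjusted p = 0.0802, and 0.0315 without WT replicate 3, in a range of 0.0315 to 0.233). Of 9 further assembly factors, 8 were matched in the table, and 1 was higher and 5 were lower, with a median of -0.24. Ecsit, which acts with Ndufaf1, had the largest fall (-0.44, adjusted p = 9.62e-10), and Timmdc1 was the higher one (0.28, adjusted p = 5.77e-05).

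Complex II oxidizes succinate and also belongs to the tricarboxylic acid cycle. Of its 4 subunits, 2 were higher, 1 was lower and 1 was not called. Sdha, the flavoprotein with the succinate site, had 260.5, 267 and 267 CPM in WT EBs and 299.6, 305 and 312 CPM in Tnfaip2-/- EBs and rose in every sample (log2 fold change 0.21, standard error 0.0258, adjusted p = 1.31e-09). Sdhd, a membrane anchor and per kb the highest of the complex (116 CPM per kb in WT EBs), had 139.9, 142 and 146 CPM and 119.8, 116 and 114 CPM. It fell in every sample (log2 fold change -0.29, standard error 0.0307, adjusted p = 1.54e-11). Of the 4 assembly factors of complex II, 3 were higher and 1 was not called, and Sdhaf3, which helps to insert iron-sulfur clusters, changed most (0.48, adjusted p = 3.84e-06).

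Complex III passes electrons from ubiquinol to cytochrome c. Of its 9 nuclear encoded subunits, 4 were higher, 1 was lower and 4 were not called, within -0.25 to 0.13. Uqcr11, a small accessory subunit, had 77.0, 67.4 and 67.1 CPM in WT EBs and 59.1, 60.7 and 58.5 CPM in Tnfaip2-/- EBs and fell without overlap (log2 fold change -0.25, adjusted p = 1.56e-06). Uqcr10, another small subunit and per kb the highest of the complex in the nucleus (118 CPM per kb in WT EBs), was higher (log2 fold change 0.13, adjusted p = 0.00224), a call that was lost without Tnfaip2-/- replicate 2 (adjusted p = 0.0507, in a range of 0.000237 to 0.0507). Of 6 assembly factors, 1 was higher, 2 were lower and 3 were not called. Among the called genes, Uqcc2, needed for the synthesis of cytochrome b, fell most (-0.38, adjusted p = 2.08e-10), and Ttc19 was higher (0.31, adjusted p = 6.5e-07). Cycs, the somatic cytochrome c, had 102, 99.5 and 109 CPM and 106, 106 and 106 CPM, with overlapping samples (log2 fold change 0.03, adjusted p = 0.426). Cyct, the testis form, was outside the rule and was chosen after its values were seen. It had 3.84, 3.48 and 3.62 CPM and 11.0, 9.86 and 11.1 CPM, a rise in every sample (log2 fold change 1.54, standard error 0.102, adjusted p = 4.95e-18).

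Complex IV reduces oxygen, and several of its subunits have forms that are restricted to some tissues. Of its 20 nuclear encoded genes, 17 were tested, of which 8 were higher, 4 were lower and 5 were not called. Cox4i1, the common form of subunit 4, had 415, 389 and 429.7 CPM in WT EBs and 459, 479.6 and 469.8 CPM in Tnfaip2-/- EBs (log2 fold change 0.19, standard error 0.0273, adjusted p = 4.09e-08). Cox4i2 (chr2:152754173-152765037), the form known from lung and from low oxygen, had 1.37, 1.34 and 1.15 CPM and 4.62, 5.43 and 4.37 CPM. Both were higher in every Tnfaip2-/- sample, Cox4i2 (log2 fold change 1.90, standard error 0.161, adjusted p = 1.94e-14). Per kb, Cox4i2 had 6.10 CPM in Tnfaip2-/- EBs, where Cox4i1 had 303, and the common form was the more abundant in both groups. Ndufa4l2, a form of Ndufa4 that is known to rise in low oxygen, had 27.9, 30.4 and 27.3 CPM and 29.6, 32.0 and 32.7 CPM with overlapping samples (log2 fold change 0.14, adjusted p = 0.0201), and it did not pass in DESeq2 (adjusted p = 0.0872) or without an expression filter (0.0669). Its call was lost without WT replicate 1 or 3 (adjusted p = 0.0967 and 0.153) and without Tnfaip2-/- replicate 2 or 3 (0.0627 and 0.148), within a range of 0.00558 to 0.153 over the alternatives. Ndufa4 was lower (-0.09, adjusted p = 0.0155) with overlapping samples, a call lost with library totals in place of TMM factors (adjusted p = 0.0739), without WT replicate 3 (0.122) and without Tnfaip2-/- replicate 3 (0.0881), within a range of 0.000356 to 0.122.

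Cox7a1 and Cox6a2 are forms known from heart and skeletal muscle. Cox7a1 had 10.5, 9.11 and 9.83 CPM in WT EBs and 17.0, 15.2 and 14.5 CPM in Tnfaip2-/- EBs and rose in every sample (log2 fold change 0.67, standard error 0.0776, adjusted p = 2.32e-10). Its common counterpart Cox7a2 was not called (0.06, adjusted p = 0.0753, but 0.0181 without Tnfaip2-/- replicate 1, 0.00977 with library totals and up to 0.487 over the alternatives), and Cox7a2l, a factor that joins complexes III and IV, fell (-0.28, adjusted p = 1.39e-11). Cox6a2 had 20, 11 and 11 counts in WT EBs and 0, 1 and 2 counts in Tnfaip2-/- EBs, in all 42 against 3. This is a ratio of 13.4 of WT to Tnfaip2-/-, with a 95% interval of 4.28 to 67.5 (Clopper-Pearson, counting error only), while the fitted log2 fold change of -3.62 (adjusted p = 7.36e-07) depends on the prior count. Cox6a2 passed the expression filter through the WT samples alone and did not pass the stricter filter, so its call carries little weight. The fitted value was -4.48 without Tnfaip2-/- replicate 3 and -3.07 without Tnfaip2-/- replicate 1. Its common counterpart Cox6a1 was not called (-0.01, adjusted p = 0.663). Cox8b, also known from muscle, had 0, 0 and 0 and 2, 0 and 0 counts. The muscle markers Myh6 and Myh7 were higher in Tnfaip2-/- EBs as well (0.94 and 0.88). Actc1, too low to test, went the other way, with 12, 9 and 6 counts in WT EBs and 1, 2 and 2 in Tnfaip2-/- EBs and no overlap. Myog, also not tested, had 0, 1 and 1 and 4, 4 and 4 counts. The part of these markers in the Cox7a1 result was not tested.

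Among forms known from testis, Cox6b2 had 32.7, 30.8 and 32.0 CPM in WT EBs and 35.2, 41.0 and 37.8 CPM in Tnfaip2-/- EBs and rose without overlap (log2 fold change 0.25, adjusted p = 2.54e-05). Cox6b1, the common form, fell (-0.16, adjusted p = 2.75e-05). Cox7b2 and Cox8c were below the filter, with 0.221, 0.268 and 0.341 CPM and 0.132, 0.457 and 0.135 CPM for the first and 0.397, 0.179 and 0.341 CPM and 0.396, 0.32 and 0.361 CPM for the second. Their common counterparts rose. Cox7b had 140.3, 132 and 138 CPM and 186, 187 and 185 CPM (log2 fold change 0.44, standard error 0.0289, adjusted p = 3.05e-18), and Cox8a, per kb the highest nuclear gene of complex IV in WT EBs (266 CPM per kb, beside 265 for Cox4i1), was higher (0.17, adjusted p = 0.000398). The germ cell markers Dazl and Ddx4 were higher in Tnfaip2-/- EBs (1.74 and 0.92) and Sycp3 was lower (-0.45), and their part in the Cox6b2 and Cyct results was not tested. Of 22 assembly factors of complex IV, 19 were tested, with 3 higher and 8 lower. Cmc1 rose most (0.66, adjusted p = 8.1e-12) and Coa6, which acts in copper delivery, fell most (-0.32, adjusted p = 0.000106).

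**Figure D4:**
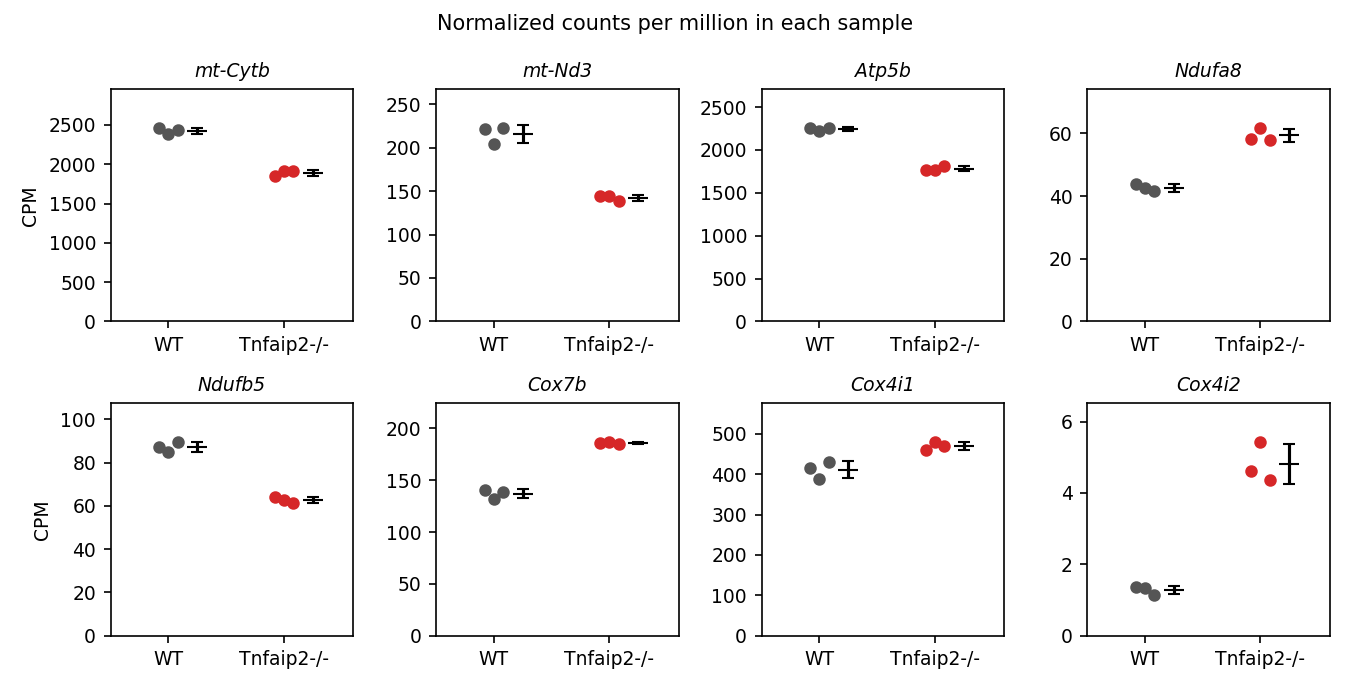
Normalized CPM (vertical axes, from 0) of 8 members in each sample, with WT samples in grey and Tnfaip2-/- samples in red. The bar beside the points is the mean and its error bar 1 SD over 3 replicates. In all 8 panels the groups do not overlap.

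Of the 16 nuclear encoded subunits of complex V, 5 were higher, 5 were lower and 6 were not called, within -0.33 to 0.18. Atp5b (chr10:128083273-128090391), the catalytic beta subunit, was the most abundant nuclear member, also per kb, at 529.6 CPM per kb in WT and 420.2 in Tnfaip2-/- EBs. It had 2254, 2219.9 and 2258 CPM and 1763, 1763 and 1816 CPM and fell in every sample (log2 fold change -0.33, standard error 0.022, adjusted p = 4.06e-18). Atp5o, which links the catalytic head to the peripheral stalk, had 203, 196 and 209 CPM and 226, 237 and 228 CPM and was higher (log2 fold change 0.18, adjusted p = 1.97e-07), but 47.9% of its exon bases lie under other genes, so that its value is uncertain. The 3 genes for the c subunit of the proton-driven ring encode the same mature protein. Atp5g1 was not called (0.01, adjusted p = 0.876), whereas Atp5g2 (0.11, adjusted p = 0.00114) and Atp5g3 (0.13, adjusted p = 3.41e-05) were higher without overlap. Pseudogene copies of Atp5g2 had 103% of its own counts.

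Atp5s, a factor that is not a subunit, had 6.13, 5.76 and 7.62 CPM in WT EBs and 2.55, 3.79 and 3.07 CPM in Tnfaip2-/- EBs and fell in every sample (log2 fold change -1.06, standard error 0.131, adjusted p = 1.33e-09). Atp5s lies on chromosome 12, 41697.8 kb from Tnfaip2. Atp5mpl, chosen here for its position, lies 506.4 kb from Tnfaip2 and was lower (-0.27, adjusted p = 7.54e-06). The other tested genes of chromosome 12 had a median of -0.19, between those of chromosomes 10 (-0.18) and 3 (-0.20). Of 3 assembly factors of complex V, 1 was higher (Tmem70, 0.18, adjusted p = 0.00412) and 1 was lower (Atpaf2, -0.13, adjusted p = 0.0244).

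All 4 carriers that supply the ATP synthase were called, beside 67.7% of all tested genes. Slc25a4, an exchanger of ADP and ATP, had 319.5, 318 and 326 CPM in WT EBs and 593, 596 and 585 CPM in Tnfaip2-/- EBs, a rise in every sample (log2 fold change 0.88, standard error 0.0242, adjusted p = 1.36e-32). Slc25a31, its counterpart in testis, also rose (0.70, adjusted p = 6.28e-06). Slc25a5, another exchanger, fell (-0.20, adjusted p = 1.28e-09), as did the phosphate carrier Slc25a3 (-0.37, adjusted p = 2.11e-18).

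The mitochondrial genome is maintained and transcribed by proteins made from nuclear genes. Of 16 genes for mtDNA maintenance and transcription, 4 were higher and 7 were lower, with a median of -0.05. Polrmt, the mitochondrial RNA polymerase, had 44.8, 43.4 and 39.9 CPM in WT EBs and 31.7, 32.6 and 32.2 CPM in Tnfaip2-/- EBs and fell in every sample (log2 fold change -0.41, standard error 0.0481, adjusted p = 3.26e-10). The initiation factor Tfam was not called (-0.04, adjusted p = 0.342), nor was the elongation factor Tefm (0.03, adjusted p = 0.695), while Tfb2m, which opens the promoter, was higher (0.19, adjusted p = 0.0186). The largest fall of the list was in Mterf2 (-0.60, adjusted p = 9.01e-06) and the largest rise in Mgme1, a nuclease of mtDNA replication (0.23, adjusted p = 1.23e-05). Of 16 genes for processing and stability of mitochondrial RNA, 1 was higher and 10 were lower, with a median of -0.18. Fastkd3 had 39.0, 41.4 and 40.6 CPM and 23.5, 23.5 and 25.1 CPM and fell most (-0.75, adjusted p = 7.31e-18), and Trmt10c, a subunit of the RNase that cuts tRNAs from the precursor, was higher (0.13, adjusted p = 0.00653). Whether these genes bear on the mitochondrial mRNAs was not tested.

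Of the 78 genes of the mitochondrial ribosome, which translates the 13 mRNAs, 77 were tested, with 21 higher and 32 lower and a median of -0.08. Mrps34 fell most (-1.17, adjusted p = 3.96e-13) and Mrpl45 rose most (0.52, adjusted p = 2.26e-19). Of 17 genes of the tricarboxylic acid cycle and pyruvate dehydrogenase, which supply the chain with NADH and succinate, 4 were higher and 7 were lower. Dlst, of the oxoglutarate dehydrogenase, fell most (-0.45, adjusted p = 9.68e-18), and the pyruvate dehydrogenase gene Pdha1 rose (0.18, adjusted p = 1.37e-06), the largest rise of that list beside Sucla2 at the same rounded value.

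Of 11 regulators of mitochondrial biogenesis, 9 were tested, with 3 higher, 5 lower and 1 not called. Ppargc1b, a coactivator of respiratory genes, had 3.84, 3.80 and 4.09 CPM in WT EBs and 1.19, 1.28 and 1.53 CPM in Tnfaip2-/- EBs and fell in every sample (log2 fold change -1.55, standard error 0.164, adjusted p = 1.94e-11). Myc had 22.3, 23.8 and 23.5 CPM and 9.37, 9.31 and 9.78 CPM and fell as well (-1.29, adjusted p = 1.26e-21). Esrrb, a pluripotency factor and receptor of the same family as Esrra, fell (-0.48, adjusted p = 9.74e-20), and so did the coactivator Pprc1 (-0.23, adjusted p = 2e-09) and Yy1 (-0.17, adjusted p = 2.82e-06). Esrra rose (0.33, adjusted p = 4.51e-06), with Gabpb1 (0.19, adjusted p = 6.6e-05) and Gabpa (0.08, adjusted p = 0.0377), the partners that bind the ETS core. Nrf1, the factor of the NRF1 core, had 73.6, 70.5 and 73.9 CPM and 74.0, 71.4 and 71.9 CPM and was not called (adjusted p = 0.916). Ppargc1a and Esrrg were below the filter, with at most 0.179 CPM in any sample.

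Counts of some nuclear members are uncertain too. Pseudogenes share windows with 18 of the 95 nuclear members, and in 15 the copies had at least 10% of the counts of the gene. With the copies added, Uqcrb was no longer called (adjusted p = 0.0602) and Cox7c was (adjusted p = 0.0122). In that fit, 6 members without copies also crossed the threshold. In 12 nuclear members, over 10% of the exon bases lie under another gene.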

How the data were processed

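RNA from 3 WT and 3 Tnfaip2-/- EB samples was prepared with a kit that selects poly(A) RNA and does not mark strand, and sequenced as single reads of 51 bases. The authors mapped reads to GRCm38 with TopHat2 2.1.0 and deposited counts per gene from featureCounts 1.5.0, not normalized and described as uniquely mapped reads. The strand setting is not given in the sources used here. Of 52636 row IDs, 52489 matched the GENCODE M21 annotation, which gave symbols, exon lengths and overlaps. Counts were filtered with filterByExpr, normalized by TMM and tested with the quasi-likelihood test of edgeR 4.0.16 in R 4.3.3, with Benjamini-Hochberg adjustment over 17849 genes and a threshold of 0.05. Standard errors were derived from the F statistic. CPM are normalized counts per 1000000, and CPM per kb divide them by the union of exons.

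The test was checked on simulated counts. Alternatives were DESeq2 1.42.0, other normalizations, filters and thresholds, a replicate block and leaving out each sample. Adding pseudogene copies that share at least 50 windows of 51 bases was chosen after seeing the data. The members and lists were chosen with earlier results of these data known.

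Named genes were all mitochondrially encoded members and all members of gene families with alternative forms. For each nuclear group, the largest rise and fall among called members without overlap were added, with the member of highest CPM per kb whatever its call, as were members called and changed at least 1.5-fold. Of each companion list the largest called rise and fall were named, with all regulators of biogenesis and with Tfam, Tfb2m, Polrmt and Tefm.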

Additional observations from a re-analysis of the deposited data

How the results depend on the processing

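The test against a fold change of 1.5 moved the counts most. It passed 2798 genes in place of 12084 and 4 members in place of 76, 1 higher (Cox4i2) and 3 lower (Ndufaf3, Cox6a2 and Atp5s) in place of 38 and 38. Of the nuclear encoded subunits it passed 1 higher and 1 lower in place of 36 and 22. It passed 0 mitochondrially encoded members as lower, 0 also at an unadjusted p below 0.05 with edgeR's glmTreat, whereas all 13 were called lower in every other setting, DESeq2 included. In the other settings, members called ranged from 68 to 79 and genes called from 10506 to 12676. With library totals in place of TMM factors, 43 members were higher and 36 lower, the largest lean to higher. In most settings more members were lower than higher, with the largest gap without WT replicate 2 (30 higher, 42 lower). With library totals, the median log2 fold change of the mitochondrially encoded members was -0.21 in place of -0.24. Leaving out each sample in turn gave medians from -0.27 (without Tnfaip2-/- replicate 3) to -0.22. The cause of these shifts was not tested.

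The fit with a replicate block called 11841 genes and 73 members, 35 of them higher and 38 lower. The deviations of same-numbered samples from their group means had correlations across genes of -0.022, -0.025 and -0.032. Those of other pairs lay between 0.004 and 0.021. These values gave no sign of pairing by number, but with 3 samples per group they cannot exclude matched preparation.

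Of 43 named members tested in up to 16 settings, 37 kept their side of the threshold in all but the test against 1.5-fold, where 34 no longer passed. The others were Ndufa2, Ndufa4, Ndufa4l2, Cox7a2, Ndufaf6 and Uqcr10. Ranges of adjusted p leave that test out. No called value changed sign. Cox6a2 could not be tested under the stricter filter. Low counts limit Cox6a2, the tRNA genes and Tnfaip2.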
